A study of Phaffia rhodozyma with 6 samples.

Results

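A set of 6 enzyme genes was followed in *Phaffia rhodozyma*, a basidiomycete yeast that accumulates the red carotenoid astaxanthin. They are called the 6 enzymes below, although whether some encode parts of the same enzyme was not tested. Of these genes, 5 encode enzymes that convert or split citrate or isocitrate, and 1 encodes fumarate hydratase, which acts later in the same cycle. They are 6 of the 6249 genes measured and are named by the number that the deposited annotation gives them: unassigned_gene_8393, unassigned_gene_11923 and unassigned_gene_11925 (isocitrate dehydrogenases), unassigned_gene_5821 (aconitate hydratase), unassigned_gene_4043 (ATP-citrate synthase) and unassigned_gene_11599 (fumarate hydratase). They were chosen by their descriptions and picked from an earlier analysis in which their measured difference between cells with and without salicylic acid (SA) was already known. That difference is therefore given as a description, without a test. The S group was 3 libraries (S1 to S3) of strain AS2.1557 grown in YPD medium with 0.5 mg/L SA, a phenolic hormone of plants. The C group was 3 libraries (C1 to C3) of the same strain in the same medium without it. Cultures were grown at 22 °C for 96 h, and the time at which cells were taken for RNA is not stated separately. The study states that all experiments were done in triplicate, without saying whether the libraries of a group came from separate cultures, so a p-value rests on the spread among libraries, part or all of which may be technical. Levels are FPKM, fragments counted per length of transcript and per size of the library, which adjusts for the length of genes and the size of libraries. A comparison of FPKM between libraries still depends on the scaling, because the median level over genes differed between the S and C libraries. Sets of 3 values are given in library order.

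The tricarboxylic acid (TCA) cycle oxidises acetyl units in mitochondria. Aconitase turns citrate into isocitrate, and isocitrate dehydrogenase oxidises isocitrate to 2-oxoglutarate while reducing NAD or NADP. In *Saccharomyces cerevisiae* the NAD enzyme is built from a catalytic and a regulatory subunit of similar sequence, each with its own gene, whereas the NADP enzymes are encoded separately and supply reducing power for synthesis. ATP-citrate synthase, also called ATP-citrate lyase, splits citrate that has left the mitochondrion into oxaloacetate and acetyl-CoA, the building block of fatty acids and of the mevalonate route to sterols and carotenoids. Oleaginous yeasts are known for this enzyme, and *S. cerevisiae* lacks it. Fumarase hydrates fumarate to malate later in the cycle.

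The study also measured an isocitrate dehydrogenase by RT-PCR, and its primer pair is shown because it is the designed sequence that belongs to these genes. Both are in lower case, 5′ to 3′, with lengths of 36 and 31 bases. The study lists its RT-PCR isocitrate dehydrogenase under the number of unassigned_gene_8393, but the FPKM means it prints beside that number are those of unassigned_gene_11923 in the deposited table. These genes differ in opposite directions between the groups. Which gene the primers amplify could not be checked without a genome sequence, and the RT-PCR values were not analysed here.
isocitrate dehydrogenase, forward primer: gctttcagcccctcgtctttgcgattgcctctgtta
isocitrate dehydrogenase, reverse primer: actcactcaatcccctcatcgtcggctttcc

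Across all genes, values were compared as log2(FPKM + 0.1) with limma in the 6113 genes that averaged 0.5 FPKM or more, with Benjamini-Hochberg adjustment. All 6 enzymes passed this limit on low values. At an adjusted p under 0.05, 1218 of the tested genes (19.9%) were higher in S and 185 (3.03%) were lower. Without library C2 these counts were 720 and 71, without S2 they were 501 and 67, and without S3 they were 553 and 79. Without C3, 293 genes were lower. The typical gene was itself higher in S: the median log2 fold change of all tested genes was 0.21, and the median level over genes was 29.2 to 31.97 FPKM in the S libraries against 23.6 to 26.4 FPKM in the C libraries. Once each library was centred on its median, 444 genes (7.26%) were higher and 937 (15.3%) lower, and quantile normalization gave 404 and 518. At an unadjusted p under 0.05, 32.4% of tested genes were higher and 5.27% lower. Changes below are therefore given as deposited and, where it alters the picture, after rescaling. Library S3 stood above S1 and S2 for several of the enzymes, so values without S3 are given beside them.

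The 2 genes of NAD-dependent isocitrate dehydrogenase had more transcript in S, the gene of the NADP-dependent enzyme had slightly less, aconitate hydratase and ATP-citrate synthase had more, and fumarate hydratase had less. In each of the 6 genes the S libraries did not overlap the C libraries, with 4 genes higher and 2 lower in S. Of all tested genes, 36.1% were higher in S without overlap and 7.48% were lower without overlap. Because the enzymes were chosen with these values known, nothing is read from their number. The median log2 fold change over the 6 was 0.46, and 0.18 after centring.

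**Figure D1:**
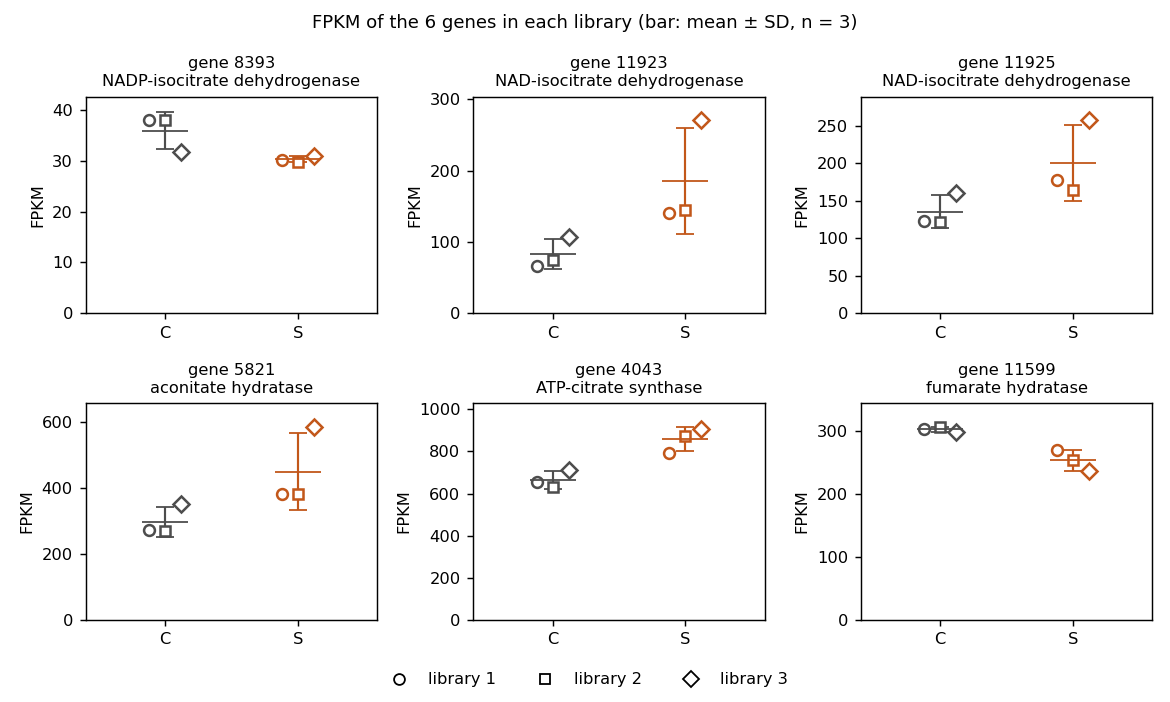
FPKM (vertical axis, linear from 0) of the 6 enzyme genes in the C libraries (grey) and the S libraries (orange), with 1 symbol per library and bars for the mean ± SD of 3 libraries. S3 is the highest library for genes 11923, 11925 and 5821 (271.1, 258.3 and 585.7 FPKM), while gene 8393 lies between 29.9 and 38.1 FPKM in all 6 libraries.

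The gene with the largest difference among the 6 was unassigned_gene_11923, annotated with the orthology number of the NAD-dependent enzyme. It lies on contig LN483345.1 of the authors' annotation at 754693 to 756668 on the minus strand, with 9 exons and a coding length of 1137 bases. Its level was 140.2, 145.2 and 271.1 FPKM in S1 to S3 and 66.1, 74.7 and 106.7 FPKM in C1 to C3. The lowest S library was above the highest C library, and library 3 was the highest of each group. The means were 185.5 ± 74.2 FPKM in S and 82.5 ± 21.4 FPKM in C (SD, n = 3), a ratio of 2.25, and the log2 fold change was 1.13 with a standard error (SE) of 0.25. It was 0.85 after centring, 1.03 with quantile normalization and 0.82 without S3.

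The second NAD-dependent gene, unassigned_gene_11925, starts on the other strand of the same contig (757181 to 758696, plus strand, 4 exons, coding length 1146 bases). It had 177.9, 163.9 and 258.3 FPKM in S1 to S3 against 122.9, 121.9 and 160.5 FPKM in C1 to C3. The gap between the groups was narrow: S2 and C3 were close, and S3 was well above the other S libraries. The means were 200.04 ± 50.9 and 135.1 ± 22.03 FPKM (SD, n = 3), with a log2 fold change of 0.55 (SE 0.17). This became 0.27 (SE 0.19) after centring, 0.50 (SE 0.18) with quantile normalization and 0.35 without S3.

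The NADP-dependent gene, unassigned_gene_8393, was the scarcest of the 6. It lies on contig LN483211.1 at 31696 to 37487 on the plus strand. Its model has 25 exons and a coding length of 3297 bases, more exons than 97.7% of genes and longer than 90.7% of them, where the median gene has 7 exons and 1323 coding bases. Whether this model is a single gene was not tested. The level was 30.2, 29.9 and 31.0 FPKM in S1 to S3 and 38.1, 38.0 and 31.7 FPKM in C1 to C3. The S libraries were nearly equal, and C3 was only slightly above the highest of them. The means were 30.4 ± 0.572 and 35.96 ± 3.67 FPKM (SD, n = 3), with a log2 fold change of -0.24 (SE 0.12), or -0.51 after centring and with quantile normalization.

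Within the 3 isocitrate dehydrogenase genes, the share of the summed FPKM that came from the NADP gene 8393 was 8.67%, 8.82% and 5.53% in S1 to S3 and 16.8%, 16.2% and 10.6% in C1 to C3. All S libraries were below all C libraries. Put as a ratio, the 2 NAD genes together had 10.5, 10.3 and 17.1 times the FPKM of the NADP gene in S and 4.96, 5.17 and 8.43 times in C. In both groups library 3 had the highest ratio. This ratio is unaffected by a single scaling factor per library, but it is built from the values by which the genes were chosen and was not tested. The size of the share and of the ratio also rests on the coding length of gene 8393, whose model was not tested as a single gene.

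The 2 NAD genes also differed from each other. Gene 11923 had 0.788, 0.886 and 1.05 times the FPKM of gene 11925 in S1 to S3 and 0.538, 0.613 and 0.665 times in C1 to C3. Gene 11923 was thus below its neighbour in all C libraries and in S1 and S2, and slightly above it in S3. This ratio too is built from the values by which the genes were chosen and was not tested. The genes stand head to head, with 512 bases between them. Of 6179 pairs of adjacent genes on the 70 contigs, 2014 (32.6%) are divergent, with a median gap of 427.5 bases, and 57.7% of divergent pairs have a gap no larger than that of the isocitrate dehydrogenase genes. Divergent arrangement and spacing were thus ordinary in this genome. What set the pair apart is that both genes carry the same orthology number: 28 adjacent pairs share one, and of these 1 pair, this one, is divergent.

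**Figure D2:**
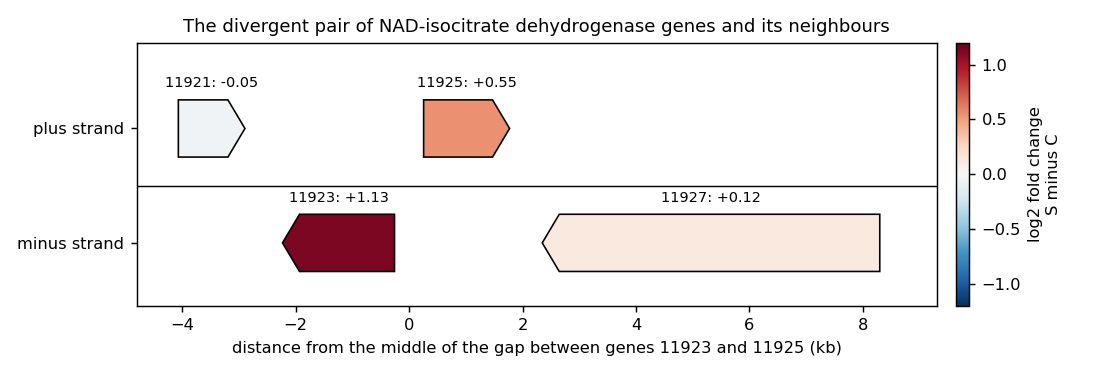
Map of the divergent gene pair 11923 and 11925 with the gene on each side, drawn to scale as distance in kb from the middle of the gap between them (horizontal axis), with strand on the vertical axis and colour and label for the log2 fold change of FPKM + 0.1, S minus C. The pair has 1.13 and 0.55, and the outer genes have -0.05 and 0.12.

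The outer neighbours of the pair did not pass the test. Gene 11921, with a domain of unknown function, had 620.6 ± 19.1 FPKM in S and 643.5 ± 49.2 FPKM in C (SD, n = 3), with a log2 fold change of -0.05 and a limma adjusted p of 0.686. After centring it was lower in S (-0.33, limma adjusted p 0.0356), and with quantile normalization its log2 fold change was 0.014. Gene 11927, a phosphoprotein phosphatase, had a log2 fold change of 0.12 and a limma adjusted p of 0.656. Beside the other 4 enzymes, 3 of 7 tested neighbours were higher in S, against 19.9% of all genes. Gene 8391 next to the NADP gene, with a fungal zinc-cluster domain, rose by 1.17 on the log2 scale (limma adjusted p 0.0128, but 0.0688 without S2 and 0.0715 with quantile normalization). The hypothetical gene 4041 next to ATP-citrate synthase rose by 0.81 (limma adjusted p 0.00931, but 0.0724 with quantile normalization). The hypothetical gene 5823 next to aconitate hydratase rose by 0.49 (limma adjusted p 0.0475), and this was lost after centring (0.196), with quantile normalization (0.243) and without each of C2, C3, S2 and S3 (0.0740, 0.0798, 0.159 and 0.158). Beside fumarate hydratase, the cyclin gene 11597 had a log2 fold change of 0.92 (limma adjusted p 0.0699, and 0.0102 without C1) and the hypothetical gene 11601 had 0.56 (limma adjusted p 0.0551, and 0.0347 without C3 and 0.0458 without S1). No enzyme gene overlapped its neighbours in position.

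Aconitate hydratase, unassigned_gene_5821, supplies the isocitrate that these dehydrogenases use. It lies on contig LN483166.1 at 244635 to 247462 on the plus strand, with 7 exons and a coding length of 2346 bases. Its level was 380.2, 382.7 and 585.7 FPKM in S1 to S3 and 272.6, 270.1 and 350.1 FPKM in C1 to C3. S1 and S2 were nearly equal and just above C3, and S3 was far above all others. The means were 449.5 ± 118 and 297.6 ± 45.4 FPKM (SD, n = 3), with a log2 fold change of 0.57 (SE 0.17), 0.30 (SE 0.19) after centring, 0.60 (SE 0.18) with quantile normalization and 0.37 without S3.

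Aconitate hydratase and the NAD gene 11925 kept a nearly fixed proportion over the 6 libraries. The ratio of gene 5821 to gene 11925 was 2.14, 2.33 and 2.27 in S1 to S3 and 2.22, 2.22 and 2.18 in C1 to C3. The groups overlapped, and the ratio in S3 was within the range of S1 and S2 although both genes were raised there. Likeness between genes was measured as the root mean square difference of their log2(FPKM + 0.1) profiles over the 6 libraries, each centred on its own mean. Of the 4568 annotated genes compared, aconitate hydratase was the closest to gene 11925, at 0.0404, ahead of gene 8113, a relative of the peroxisomal membrane protein MPV17, at 0.0814 and gene 8315 at 0.0918. Both genes were chosen with these values known, and the 6 libraries share their group difference and the high S3. The ratio and the likeness are therefore a description with few points and were not tested.

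The other isocitrate dehydrogenases had different closest genes. For gene 11923 these were gene 1279, an ATP-dependent transporter by its description, at 0.123, gene 2489, of the universal stress protein family UspA, at 0.124, and gene 4533, a predicted metal-dependent hydrolase, at 0.146. Aconitate hydratase was number 80 in that order and gene 11925, the divergent partner, was number 101. For the NADP gene 8393 the closest were gene 9997, the vacuolar sorting protein VPS8, at 0.0250, gene 5699, a synthase of the first step of the aromatic amino acid route by its orthology number, at 0.0266, and gene 11799, a general substrate transporter, at 0.0303. Gene 11923 was number 4468 of the 4568 in likeness to gene 8393. These orders rest on the S and C values with which the enzymes were chosen. The places of the enzymes among one another therefore follow in part from that choice and were not tested.

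ATP-citrate synthase, unassigned_gene_4043, was the most abundant of the 6, at rank 160 of the 6249 genes by mean FPKM. It lies on contig LN483157.1 at 139284 to 143362 on the plus strand, with 7 exons and a coding length of 3450 bases. Its level was 794.2, 874.9 and 908.7 FPKM in S1 to S3 and 653.8, 631.2 and 712.1 FPKM in C1 to C3. All S libraries were above all C libraries, and S3 was close to S2. The means were 859.3 ± 58.9 and 665.7 ± 41.8 FPKM (SD, n = 3), and the log2 fold change was 0.37 (SE 0.08). After centring it was 0.09 (SE 0.11), and with quantile normalization it was 0.41 (SE 0.08). The median of all tested genes was 0.21 as deposited and -0.07 after centring. The gene lay above this median, and centring moves all genes by the same amount. Its distance from the median is therefore the same on both scales and is no second observation. The size of its log2 fold change depended on the scaling.

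ATP-citrate synthase made up 43.8% ± 3.85 of the summed FPKM of the 6 enzymes in S and 43.8% ± 1.004 in C (SD, n = 3). The sum itself was 1793, 1850 and 2291 FPKM in S1 to S3 and 1456, 1443 and 1660 FPKM in C1 to C3. The ratio of ATP-citrate synthase to aconitate hydratase was 2.09, 2.29 and 1.55 in S and 2.40, 2.34 and 2.03 in C. Here the groups overlapped, and library 3 was the lowest of each group.

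Fumarate hydratase, unassigned_gene_11599, acts after the succinate steps of the cycle. It lies on contig LN483345.1 at 234808 to 237051 on the minus strand, with 8 exons and a coding length of 1509 bases. Its level was 270.0, 253.0 and 236.2 FPKM in S1 to S3 and 302.6, 306.7 and 298.9 FPKM in C1 to C3. The C libraries were nearly equal, and all S libraries were below them. The means were 253.1 ± 16.9 and 302.8 ± 3.93 FPKM (SD, n = 3), and the log2 fold change was -0.26 (SE 0.08), or -0.54 after centring and -0.26 with quantile normalization. Aconitate hydratase had 1.41, 1.51 and 2.48 times the FPKM of fumarate hydratase in S and 0.901, 0.881 and 1.17 times in C. Hence the order of the 2 genes differed between the groups: fumarate hydratase was above aconitate hydratase in C1 and C2 and below it in C3 and in all S libraries. Gene 10825, which shares the fumarase orthology number but is described as a tubulin/FtsZ relative, had 16.0 ± 2.12 FPKM in S and 12.2 ± 2.19 FPKM in C (SD, n = 3).

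By mean FPKM over all libraries, the enzymes ran from ATP-citrate synthase (rank 160) through aconitate hydratase (318), fumarate hydratase (429), gene 11925 (679) and gene 11923 (840) to gene 8393 (2806). In the C group the means of fumarate hydratase and aconitate hydratase were close (302.8 ± 3.93 and 297.6 ± 45.4 FPKM). Within the libraries aconitate hydratase had 0.901, 0.881 and 1.17 times the FPKM of fumarate hydratase in C1 to C3. In the S group the means of genes 11925 and 11923 were also near each other (200.04 ± 50.9 and 185.5 ± 74.2 FPKM). Within the libraries gene 11923 had 0.788, 0.886 and 1.05 times the FPKM of gene 11925 in S1 to S3.

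The spread inside the groups had a pattern of its own. In 4 of the 6 genes (11923, 11925, 5821 and 4043) library 3 was the highest in both groups, as in 583 of the 6113 tested genes (9.54%). S3 was over 1.5 times the mean of S1 and S2 in 3 of the 6, with folds of 1.90, 1.51 and 1.54 for genes 11923, 11925 and 5821, and in 286 tested genes (4.68%). C3 was 1.52, 1.31 and 1.29 times the mean of C1 and C2 for the same 3 genes. Gene 8393 had the opposite order in C, where C3 was 0.833 times the mean of C1 and C2, and fumarate hydratase was lowest in library 3 of both groups. The sources used here do not say what the libraries numbered 3 share, and the part of this spread in the differences above was not tested.

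**Figure D3:**
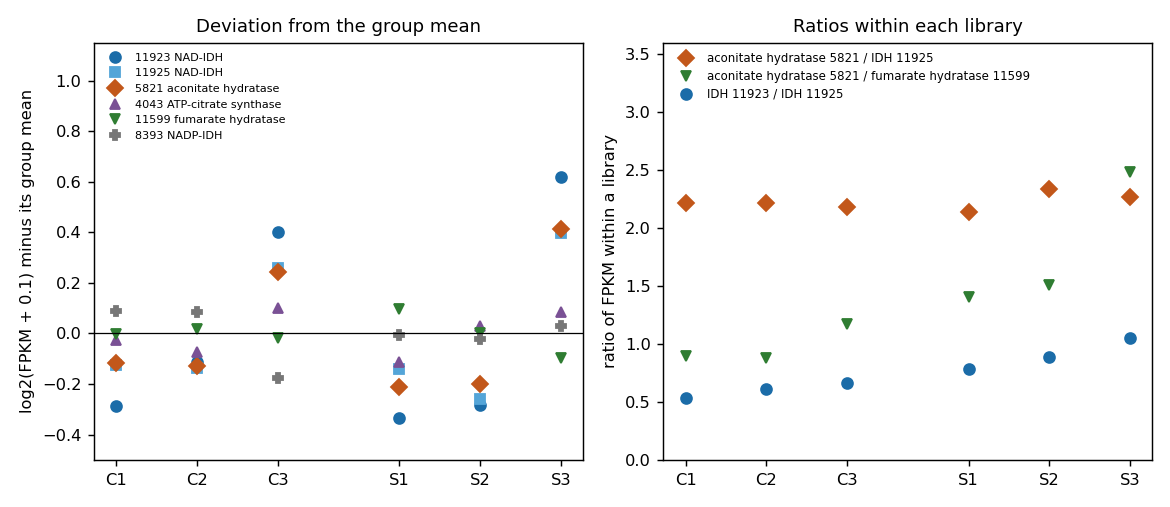
Left, log2(FPKM + 0.1) of each enzyme gene minus the mean of its group (vertical axis) for each library, with 1 symbol per gene. Right, ratio of FPKM between 2 genes within each library (vertical axis, linear from 0). Genes 11923, 11925 and 5821 are the highest points in C3 and S3, whereas the ratio of aconitate hydratase 5821 to gene 11925 stays between 2.14 and 2.33.

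A further pair of genes around citrate and acetate were high in S3 alone. They were singled out after their values were seen. Isocitrate lyase gene 10441, the entry to the glyoxylate bypass of the 2 decarboxylating steps, had 4.82, 6.72 and 34.9 FPKM in S1 to S3 and 5.89, 4.16 and 4.68 FPKM in C1 to C3. Phosphoenolpyruvate carboxykinase, gene 445, which draws oxaloacetate from the cycle towards sugars, had 46.7, 46.0 and 170.8 FPKM in S1 to S3 and 56.7, 40.6 and 65.7 FPKM in C1 to C3. In both genes S1 and S2 lay within or near the range of the C libraries, and neither passed the test (limma adjusted p 0.193 for gene 10441 and 0.497 for gene 445). Without S3 the log2 fold change of gene 445 was -0.20.

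The enzymes around these 6 were counted in 6 lists filled from KEGG maps, orthology numbers and descriptions. Of all 55 listed genes, 7 were higher in S and 5 were lower by limma, beside 19.9% and 3.03% of all tested genes. Their median log2 fold change was 0.08, compared with 0.21 for all tested genes. After centring, 4 were higher and 14 lower, beside 7.26% and 15.3% of all tested genes.

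**Figure D4:**
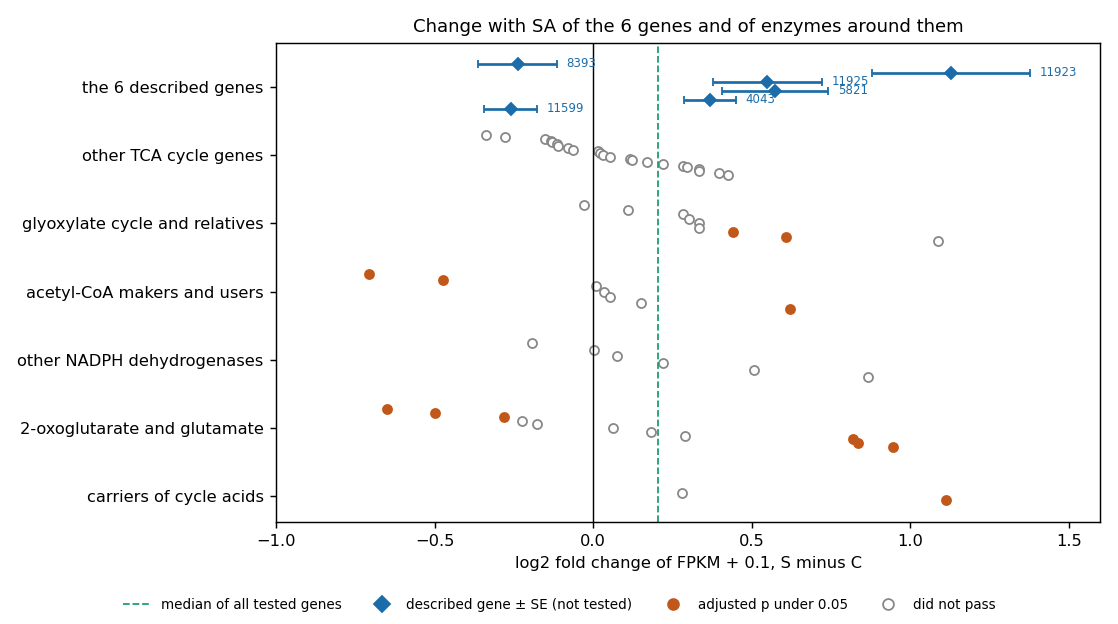
Log2 fold change of FPKM + 0.1, S minus C (horizontal axis), for the 6 enzymes (blue diamonds with SE, not tested) and for each gene of the 6 lists of related enzymes (circles, filled where the limma adjusted p was under 0.05). The 23 other TCA cycle genes lie between -0.34 and 0.42 with none filled, and the dashed line marks the median of all tested genes at 0.21.

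The list for the rest of the TCA cycle also held pyruvate carboxylase, phosphoenolpyruvate carboxykinase and a gene described as a general substrate transporter. It lacked gene 11021, also described as aconitate hydratase. Of the 23 listed genes, 0 passed the limma test in either direction. At an unadjusted p under 0.05, 2 of them were higher and 1 was lower, compared with 32.4% and 5.27% of all tested genes. Their median log2 fold change was 0.03, with a range of -0.34 to 0.42. After centring, 6 of the 23 were lower by limma and 0 were higher, compared with 15.3% and 7.26% of all tested genes. Quantile normalization gave 1 lower. The 2 most abundant, the subunits of pyruvate dehydrogenase that feeds acetyl-CoA into the cycle (genes 11541 and 12019), had 641.1 ± 27.1 and 537.9 ± 36.7 FPKM in S and 695.4 ± 90.1 and 592.1 ± 66.8 FPKM in C (SD, n = 3). Citrate synthase, which makes citrate, is encoded by genes 11033 and 5363 among others. Gene 11033 had 131.2 ± 15.6 FPKM in S and 103.7 ± 5.21 FPKM in C (SD, n = 3), with a log2 fold change of 0.33 and a limma adjusted p of 0.0521, and it passed with a pseudocount of 1 FPKM (0.0498) and without C1 (0.0419). Gene 5363 had a log2 fold change of 0.28 and a limma adjusted p of 0.214. Another citrate synthase gene, 5511, described as peroxisomal, had 18.7 ± 2.79 and 14.9 ± 3.12 FPKM (SD, n = 3). ATP-citrate synthase had 2.98 ± 0.297 times the summed FPKM of genes 11033 and 5363 in S and 2.87 ± 0.451 times in C (SD, n = 3).

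Of 9 genes of the glyoxylate cycle and of reactions like those of citrate, 2 were higher in S and 0 lower by limma. This is near the 19.9% and 3.03% of all tested genes. At an unadjusted p under 0.05, 3 were higher and 0 lower, a share near the 32.4% of all tested genes. Homoaconitate hydratase, gene 6807, an aconitase relative of lysine synthesis in fungi, had 53.0 ± 2.77 FPKM in S and 35.2 ± 6.83 FPKM in C (SD, n = 3), with a log2 fold change of 0.61 (SE 0.15, limma adjusted p 0.0185). 2-Methylcitrate dehydratase, gene 9915, of propionate breakdown, had 175.6 ± 17.8 and 130.3 ± 22.1 FPKM (SD, n = 3), with 0.44 (SE 0.14, limma adjusted p 0.0417). Neither passed after centring (limma adjusted p 0.128 and 0.347), without S2 (0.0688 and 0.153) or without S3 (0.0650 and 0.0597). Gene 9915 also failed without S1 (0.0865), without C2 (0.0727) and without C3 (0.0720).

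Other relatives of the 6 enzymes did not pass. A second gene described as aconitate hydratase, 11021, had 56.9, 59.6 and 64.8 FPKM in S1 to S3 and 40.6, 52.1 and 47.7 FPKM in C1 to C3, without overlap, and its limma adjusted p was 0.0554. Homoisocitrate dehydrogenase, gene 7905, had 21.9 ± 1.72 and 17.8 ± 1.97 FPKM (SD, n = 3), with a limma adjusted p of 0.147. Homocitrate synthase, gene 11857, had 369.0 ± 21.1 and 367.7 ± 40.1 FPKM (SD, n = 3). The second isocitrate lyase, gene 5475, had 16.1 ± 2.71 and 15.0 ± 3.07 FPKM (SD, n = 3), and fumarate reductase, gene 9779, had 470.6 ± 58.3 and 429.8 ± 55.4 FPKM (SD, n = 3).

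Among 7 genes that make or use acetyl-CoA, the product of ATP-citrate synthase, 1 was higher and 2 were lower by limma. The shares of all tested genes were 19.9% and 3.03%. Acetate-CoA ligase, gene 4273, which makes acetyl-CoA from acetate, had 681.1, 604.4 and 1020 FPKM in S1 to S3 and 513.8, 466.6 and 481.5 FPKM in C1 to C3. Its log2 fold change was 0.62 (SE 0.16, limma adjusted p 0.0228), and 0.40 without S3 (limma adjusted p 0.0309). The limma adjusted p was 0.168 after centring, 0.0606 without C2 and 0.0672 without C3. The genes that passed lower were those of the mevalonate route. Hydroxymethylglutaryl-CoA synthase, gene 2377, had 466.5 ± 26.1 FPKM in S and 771.2 ± 161 FPKM in C (SD, n = 3) and fell by 0.71 on the log2 scale (SE 0.13, limma adjusted p 0.00650). Hydroxymethylglutaryl-CoA reductase, gene 11169, had 547.6 ± 39.5 and 760.1 ± 51.9 FPKM (SD, n = 3) and fell by 0.47 (SE 0.09, limma adjusted p 0.00593). Acetyl-CoA carboxylase, gene 9751, the first step of fatty acid synthesis, was near ATP-citrate synthase in level, with 838.9 ± 38.9 and 755.4 ± 12.6 FPKM (SD, n = 3), a log2 fold change of 0.15 and a limma adjusted p of 0.152.

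The list of other dehydrogenases that form NADPH, as gene 8393 does, gave 0 of 6 genes higher or lower by limma. At an unadjusted p under 0.05, 2 were higher and 0 lower, again near the 32.4% of all tested genes. The list also held malate dehydrogenase genes 12519 and 10321, whose orthology number is that of an NAD-dependent enzyme. Gene 12519 was 1 of the 2 higher, so these counts are not about NADPH alone. After centring, 2 of the 6 were lower by limma, compared with 15.3% of all tested genes. Glucose-6-phosphate dehydrogenase, gene 3195, which opens the pentose phosphate pathway, had 233.8 ± 1.31 FPKM in S and 233.8 ± 17.0 FPKM in C (SD, n = 3), and after centring it was 1 of the genes called lower (-0.27, limma adjusted p 0.0480). The more abundant 6-phosphogluconate dehydrogenase, gene 1905, had 266.0 ± 13.1 and 253.2 ± 28.0 FPKM (SD, n = 3). Both were above gene 8393 in level in both groups.

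On the side of 2-oxoglutarate, the product of isocitrate dehydrogenase, 3 of 11 genes were higher in S and 3 were lower by limma. Of all tested genes, 19.9% were higher and 3.03% lower. Glutamate dehydrogenase, gene 11397, with the orthology number of the NADP enzyme that aminates 2-oxoglutarate, had 63.7, 57.1 and 50.6 FPKM in S1 to S3 and 30.6, 30.2 and 27.7 FPKM in C1 to C3. It rose by 0.95 on the log2 scale (SE 0.12, limma adjusted p 0.00188), and its S libraries were all above 50 FPKM while its C libraries were all near 30 FPKM. A low-level aspartate aminotransferase, gene 1591, rose by 0.82 (SE 0.16, limma adjusted p 0.00835), but with quantile normalization its adjusted p was 0.0888. The gene described as a predicted glutamine synthetase, 8869, which carries the orthology number of GMP synthase, rose by 0.84 (SE 0.17, limma adjusted p 0.00922).

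The abundant glutamine synthetase, gene 7573, which turns glutamate into glutamine, had 1060 ± 65.6 FPKM in S and 1497 ± 23.2 FPKM in C (SD, n = 3) and fell by 0.50 (SE 0.07, limma adjusted p 0.00256). Glutamine synthetase gene 6049 had 758.6 ± 80.6 and 918.1 ± 10.4 FPKM (SD, n = 3) and fell by 0.28 (SE 0.09, limma adjusted p 0.0404). Gene 5867, described as a predicted glutamine synthetase, fell by 0.65 (SE 0.21, limma adjusted p 0.0450). For gene 6049 the limma adjusted p was above the threshold without each of C1, C2, C3, S2 and S3 (0.0553, 0.109, 0.0718, 0.143 and 0.134). For gene 5867 this was so without each of C2, S1 to S3 (0.0546, 0.112, 0.0742 and 0.101), and without C3 its log2 fold change was -0.36.

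Of the 2 mitochondrial carriers of cycle acids, the succinate:fumarate antiporter gene 7489, which exchanges these acids across the inner membrane, had 51.5, 63.4 and 112.5 FPKM in S1 to S3 and 36.7, 33.4 and 29.5 FPKM in C1 to C3. It rose by 1.11 on the log2 scale (SE 0.24, limma adjusted p 0.0115), with S3 the highest. The tricarboxylate transporter gene 3393, which can carry citrate out of the mitochondrion towards ATP-citrate synthase, had 55.0 ± 5.55 FPKM in S and 45.4 ± 6.34 FPKM in C (SD, n = 3), with overlapping groups and a limma adjusted p of 0.158.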

How the data were processed

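Per the labels and the study's methods, poly(A) RNA was sequenced in 3 libraries with 0.5 mg/L SA and 3 without. The authors used fastp for cleaning, HISAT2 for mapping and StringTie for FPKM, in versions that the sources used here do not give. The deposited table holds FPKM, already divided by length and library size, and the authors' own fold, log2 fold, p-value and q-value columns, which were not used. The study's text names 2 assemblies, and neither is tied to the contig names by the sources used here. Read depth per value is unknown: at best 17.1% to 21.9% of low values per library lay within 0.05 of whole reads, where a fixed step gives 10% by chance. No per-sample column was left unused (0), and every library has 1 FPKM column.

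Groups were compared with limma 3.58.1 in R 4.3.3 on log2(FPKM + 0.1), with a mean-variance trend, no replicate block, and 2-sided p-values adjusted by Benjamini-Hochberg over the 6113 genes that averaged 0.5 FPKM or more. The pseudocount makes fold changes of low genes too small. The fit was tested on simulated data. Alternatives were other pseudocounts (1 and 0.01 FPKM), no limit or 1 FPKM, median centring, quantile normalization, no trend, a replicate block, TPM rescaling of levels, and leaving out each library. The enzymes and lists were chosen with earlier results of these data known. Lists were filled by KEGG map, orthology number or description, which brings in some genes of other function. Named genes are the 6 enzymes, list genes past the threshold, the 2 most abundant of each list, the 3 profiles most like each isocitrate dehydrogenase, the adjacent genes, and genes whose description holds isocitrate dehydrogenase, aconit, citrate or fumar. Genes 445 and 10825 and the peculiarity of S3 were singled out after their values were seen.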

Additional observations from a re-analysis of the deposited data

How the results depend on the processing

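The 6 enzymes kept the direction of their difference under every alternative and with each library left out. Their S and C libraries did not overlap, so leaving out a library could not turn the direction, and only a rescaling could. The kept direction is therefore no separate support. The size of the differences depended on the scaling. With libraries centred on their median, gene 8393 had a log2 fold change of -0.51 and gene 11599 of -0.54. Gene 4043 had 0.092 (SE 0.11), less than its SE. With quantile normalization gene 8393 had -0.51. The 2 scalings differed for the others: quantile normalization left gene 4043 at 0.41, gene 11599 at -0.26, gene 5821 at 0.60 and gene 11925 at 0.50, where centring gave 0.30 for gene 5821 and 0.27 for gene 11925. The 1218 genes higher in S became 444 after centring, 404 with quantile normalization and 501 to 1338 with 1 library left out. The 185 lower became 937, 518 and 67 to 293 in the same order, and 80 without the trend. Of the 55 listed enzymes, 4 were higher after centring and 4 with quantile normalization, and 5 to 8 with 1 library left out. Lower were 14 after centring, 3 without the trend and 3 to 6 with 1 library left out. Among named genes that had not passed in the fit as reported, the sign of the log2 fold change turned in the following. After centring it was -0.27 for gene 11857, -0.20 for gene 1905, -0.27 for gene 3195 (limma adjusted p 0.0480), -0.17 for gene 5475, -0.13 for gene 9751, -0.14 for gene 9779, -0.13 for gene 4045, -0.033 for gene 5819 and -0.16 for gene 11927. With quantile normalization it was -0.0085 for gene 11857, -0.013 for gene 3195, -0.24 for gene 5475, -0.015 for gene 7905, -0.20 for gene 4045, -0.014 for gene 5819, 0.014 for gene 11921 and -0.24 for gene 11927. With 1 library left out it ran from -0.077 to 0.081 for gene 11857, from -0.012 to 0.15 for gene 1905, from -0.052 to 0.052 for gene 3195, from -0.018 to 0.27 for gene 5475, from -0.00073 to 0.29 for gene 4045, from -0.012 to 0.25 for gene 11927 and from -0.20 to 0.74 for gene 445. Read depth behind single values is unknown, so low genes such as 10441 are known less precisely than abundant ones.

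Over all tested genes, the deviations of same-numbered libraries from their group means correlated at -0.0168, 0.162 and -0.00339 for numbers 1, 2 and 3. Not every library correlated best with its own number, while S2 with C2 had the highest value of all pairs. With 3 libraries per group these values constrain one another. They cannot settle whether the libraries were paired. With the replicate number as a block, 1051 genes were higher and 151 lower, and of the listed enzymes 8 and 4. Such a block leaves the log2 fold changes of the 6 enzymes as they are, but it changes their SE. The SE fell from 0.25 to 0.11 for gene 11923, from 0.17 to 0.10 for gene 11925 and from 0.17 to 0.09 for gene 5821. It rose from 0.12 to 0.14 for gene 8393 and from 0.084 to 0.090 for gene 11599, and for gene 4043 it stayed at 0.08. With the block, genes 6049 (limma adjusted p 0.0509) and 5823 (0.0745) no longer passed and gene 11601 did (0.0446). Without the trend, genes 4273, 9915, 6049, 5867 and 5823 no longer passed (0.0687, 0.0924, 0.124, 0.103 and 0.0676), and with quantile normalization genes 6807, 9915, 6049, 5867 and 1591 no longer passed (0.103, 0.0815, 0.125, 0.0701 and 0.0888).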
